A study of Mus musculus with 36 samples.

Results

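The genes described here encode the nuclear subunits of respiratory complexes II, III, IV and V together with cytochrome c. They were taken from the deposited gene table as the protein-coding rows whose symbol begins with Uqcr, Cox4 to Cox8 or Atp5, plus *Sdha*, *Sdhb*, *Sdhc*, *Sdhd*, *Cyc1* and *Cycs*. This gave 51 of 21970 protein-coding rows: 4 of complex II, 9 of complex III, 1 of cytochrome c, 19 of complex IV and 18 of complex V. The rule used names only, no measured value.

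RNA-seq of visWAT (visceral, epididymal fat) and liver was available from the same 18 male C57BL/6J mice, 16 weeks old at the start and fed for 16 weeks. MlklAdi-KO mice carried floxed *Mlkl* and the Adipo-Cre transgene, which is active in adipocytes, whereas their WT littermates carried floxed *Mlkl* without Cre. Each tissue had 4 mice per genotype on NCD (normal chow diet) and 5 per genotype on HFD (high-fat diet), which makes 8 groups. In whole tissue the other cell types keep *Mlkl*, and fewer cells of a type cannot be told apart from less RNA per cell.

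Complex II oxidises succinate and passes electrons to ubiquinone. Complex III hands them on to cytochrome c, and complex IV passes them to oxygen. Complexes III and IV pump protons across the inner mitochondrial membrane, and complex V, the ATP synthase, uses the returning protons to make ATP. Complex II is built from nuclear genes alone, while complexes III, IV and V also hold subunits encoded by mitochondrial DNA. Several complex IV subunits exist in a common form and in a form known from heart, muscle or brown fat, and white adipocytes hold fewer mitochondria than brown ones.

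Library depth ranged from 20875463 to 30322171 reads on genes. *Adipoq* was at 743 to 1995 FPKM (fragments per length of gene and size of library, as scaled by the authors) in visWAT, and the summed hepatocyte markers were at 42846 FPKM or more in liver. A pair of visWAT libraries of the WT NCD group stood apart, and counts, medians and the main genes of comparisons with this group are also given without them, which leaves 2 WT NCD mice. The library labelled WT NCD mouse 182 held 2.29 FPKM of *Mlkl*, inside the 1.96 to 2.72 FPKM of the MlklAdi-KO mice and below the 3.91 to 6.28 FPKM of the other WT mice. That library also held 6.23 FPKM of *Ucp1*, the uncoupling protein of brown fat, against at most 0.30 FPKM in the other 17 mice. In mouse 183, 3 seminal vesicle markers summed to 230090 FPKM, of 564718 FPKM over all genes of that library. The visWAT library of MlklAdi-KO HFD mouse 156 held 460 FPKM of the hepatocyte marker *Alb*, against at most 53.2 FPKM in the other visWAT libraries. It was kept, and a count of the genotype comparison on HFD is also given without it. The liver library of mouse 182 also stood apart, with *Elovl3* at 2.93 FPKM against 310 to 414 FPKM in the other WT NCD livers, *Cyp2e1* at 1366 against 4088 to 4196 FPKM, and summed macrophage markers at 124 against 37.6 to 47.5 FPKM. In MlklAdi-KO HFD liver these macrophage markers summed to 117 FPKM in mouse 152, against 31.9 to 47.8 FPKM in the other mice of that group.

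Of the 51 genes, 3 were listed at 0 in every library: *Cox7b2*, *Cox8c* and a second *Atp5o* row (ENSMUSG00000116933). The row *Cox5b-ps* (chromosome 13, 21685199 to 21685588 in GRCm39) is described in the table as a pseudogene of *Cox5b*, and reads of these near-identical rows may have been shared. A filter of 0.5 FPKM on the mean of the mice compared left 48 genes in most visWAT comparisons and 44 in most liver comparisons. *Cox4i2*, *Cox6a2* and *Cox8b* stayed below the filter in every comparison within liver.

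Promoters of 37 genes were available from RefSeq (build GRCm38.p6, 250 bases before and 50 after the start). 3 motifs known from respiratory genes were searched on both strands: NRF1 (GCGCA, any base, then GCGC), GABP (CCGGAAG) and ERR (TCAAGGTCA). NRF1 letters were found in 10 of 37 genes (27.0%) against 5.19% of all 27025 genes with a promoter, GABP letters in 13 (35.1% against 9.93%) and ERR letters in 2 (5.41% against 0.466%). The 27025 genes were not filtered by type, whereas the 37 are protein-coding, so these shares rest on unlike sets. A match is a description of letters, not a binding site. The promoters printed are those of *Sdha*, the gene that fell most in fat of complex II, *Sdhd*, which alone held all 3 motifs, *Uqcr11*, which fell in liver, and the common and the tissue form of subunit 8. These genes were picked with their values known. Capitals mark motif matches.
Sdha, chr13:74350191-74350490, minus strand: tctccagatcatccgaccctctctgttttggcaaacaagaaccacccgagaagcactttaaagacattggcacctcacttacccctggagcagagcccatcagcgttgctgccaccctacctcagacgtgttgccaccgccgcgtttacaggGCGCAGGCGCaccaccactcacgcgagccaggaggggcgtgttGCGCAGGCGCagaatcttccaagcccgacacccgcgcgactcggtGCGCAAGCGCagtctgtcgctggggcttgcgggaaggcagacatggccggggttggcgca
Sdhd, chr9:50603800-50604099, minus strand: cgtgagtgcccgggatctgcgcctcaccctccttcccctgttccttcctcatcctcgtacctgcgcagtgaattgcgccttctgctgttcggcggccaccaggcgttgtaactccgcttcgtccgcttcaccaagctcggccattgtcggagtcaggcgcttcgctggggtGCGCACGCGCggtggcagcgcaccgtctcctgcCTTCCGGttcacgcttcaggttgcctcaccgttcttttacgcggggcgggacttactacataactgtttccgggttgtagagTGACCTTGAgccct
Uqcr11, chr10:80406772-80407071, minus strand: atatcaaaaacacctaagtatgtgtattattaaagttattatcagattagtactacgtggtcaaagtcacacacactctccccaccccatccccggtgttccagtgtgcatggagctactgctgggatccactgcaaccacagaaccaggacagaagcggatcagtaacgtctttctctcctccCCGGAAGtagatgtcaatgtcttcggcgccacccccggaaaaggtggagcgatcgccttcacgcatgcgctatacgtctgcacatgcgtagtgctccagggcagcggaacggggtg
Cox8a, chr19:7217567-7217866, minus strand: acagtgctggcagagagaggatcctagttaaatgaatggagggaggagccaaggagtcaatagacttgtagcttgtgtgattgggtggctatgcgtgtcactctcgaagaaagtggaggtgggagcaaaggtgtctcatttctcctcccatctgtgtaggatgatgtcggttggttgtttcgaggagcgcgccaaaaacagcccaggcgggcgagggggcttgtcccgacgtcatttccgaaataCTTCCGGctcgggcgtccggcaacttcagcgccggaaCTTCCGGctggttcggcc
Cox8b, chr7:140900397-140900696, minus strand: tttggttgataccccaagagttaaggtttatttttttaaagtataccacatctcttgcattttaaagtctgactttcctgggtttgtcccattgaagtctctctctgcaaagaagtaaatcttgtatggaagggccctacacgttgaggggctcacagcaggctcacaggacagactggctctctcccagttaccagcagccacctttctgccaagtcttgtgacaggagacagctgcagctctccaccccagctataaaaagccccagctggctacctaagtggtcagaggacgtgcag
The *Sdha* window held 3 NRF1 matches and the *Cox8a* window 2 GABP matches. No capital stands in *Cox8b*, so these letters were not found in that window.

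High-fat feeding was first examined in WT visWAT. In this fat, 16 of the 48 measured genes fell and 1 rose in limma on log2(FPKM + 1) with an adjusted p under 0.05. Over all genes tested the background was 15.8% lower and 21.9% higher. The median log2 fold change was -0.43, beside -0.01 over all genes. By complex, 3 of 4 genes of complex II fell, 6 of 9 of complex III, 4 of 17 of complex IV and 3 of 17 of complex V. On the TPM scale, in which each library sums to the same total, the median was 0.04 beside a shift of 0.42 over all genes, with 0 falls and 2 rises. With mice 182 and 183 left out, the TPM scale gave 24 falls and 4 rises, for which the shares of all genes are not given. The FPKM scale then gave 29 falls and 4 rises, where 24.2% of all genes were lower and 27.8% higher. The 29 included all 16 falls named here, and took in 4 of 4 genes of complex II, 9 of 9 of complex III, 7 of 17 of complex IV and 9 of 17 of complex V. Without mouse 180 alone there were 7 falls, and without mouse 183 alone 30. The mean log2 deviation of 44 genes from their visWAT means was -0.06 and 0.28 in mice 165 and 180, which were kept. It was 0.81 in mouse 182 and -0.18 in mouse 183, the highest and the lowest of the WT NCD mice. All p-values measure the spread between the mice of these groups.

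*Sdha*, the flavoprotein that binds succinate (chromosome 13, 74470373 to 74498399, GRCm39), was at 76.7, 104, 120 and 209 FPKM in WT NCD mice 183, 165, 180 and 182. After HFD the WT mice had 48.4, 55.2, 57.3, 61.0 and 63.6 FPKM. The 2 groups did not overlap, and only the spread on NCD was wide. The log2 fold change was -1.05 ± 0.25 (SE, limma adjusted p = 0.0086), and -0.96 without mice 182 and 183 (limma adjusted p = 0.00037). The same gene stood at 96.0, 106, 108 and 111 FPKM in MlklAdi-KO mice on NCD and at 56.1, 61.8, 64.7, 65.4 and 65.8 FPKM on HFD. Again no HFD mouse reached an NCD mouse, with a log2 fold change of -0.73 ± 0.07 (SE, limma adjusted p = 0.00025).

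**Figure D1:**
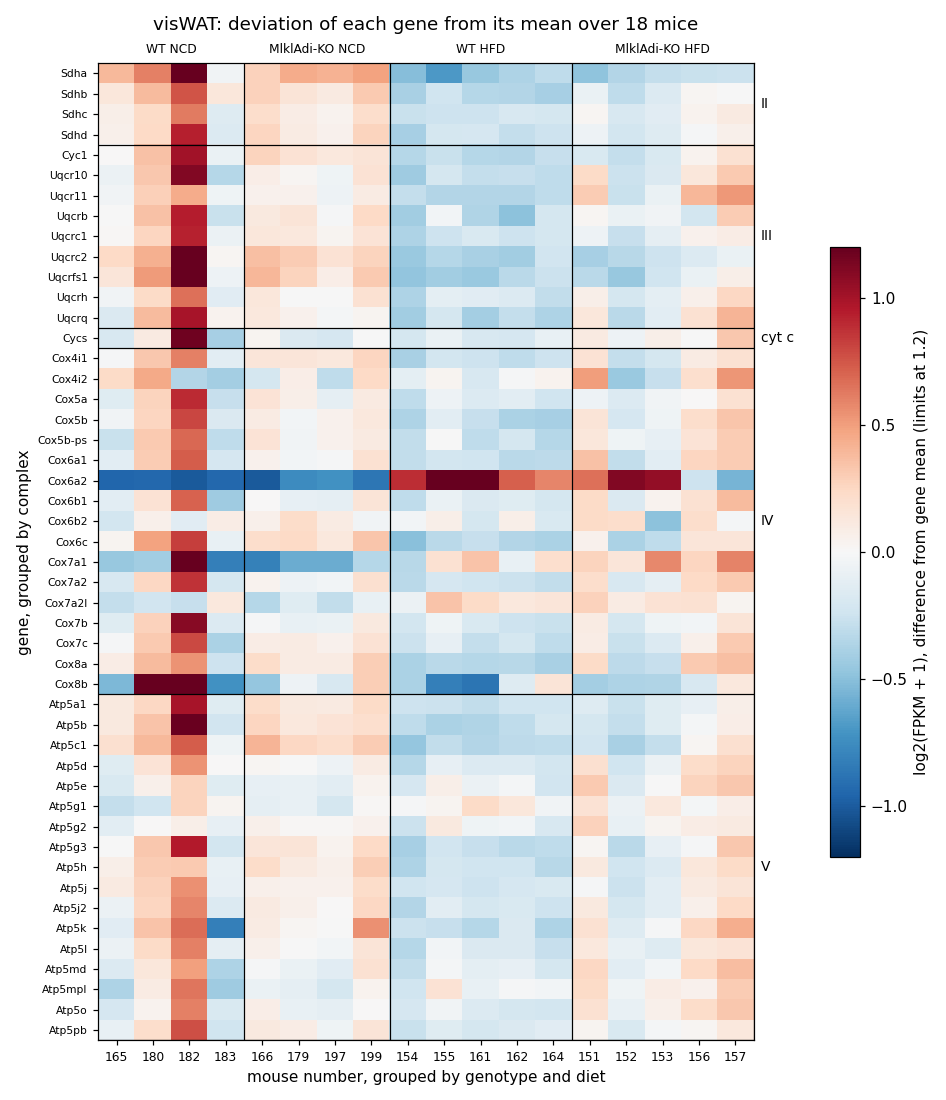
Heat map of log2(FPKM + 1) in visWAT for the 48 genes with a read, each as the difference from its own mean over 18 mice; columns are mice by group, rows are genes by complex, and colours are limited at 1.2. Mouse 182 is red in nearly all rows. It is highest of the 18 in 40 of the 44 genes with a mean of at least 10 FPKM over both tissues. The library size behind its FPKM, divided by its reads on genes, is 1.08. This ratio is 1.01 in mouse 183 and 1.30 to 1.40 in the other visWAT libraries. The part of this scaling in the red of mouse 182 was not tested. *Cox6a2* is blue on NCD and red in most HFD mice, and the mean deviation of complex II is under 0 in each HFD mouse.

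The other complex II genes were lower in WT HFD mice as well. *Sdhb*, the iron-sulfur subunit, changed from 64.4 ± 14.0 to 38.8 ± 1.78 FPKM (SD, n = 4 and 5, log2 -0.69, limma adjusted p = 0.0025, and -0.60 without mice 182 and 183), and the membrane anchor *Sdhc* from 44.3 ± 10.6 to 32.0 ± 0.68 FPKM (log2 -0.43). For the anchor *Sdhd* the groups did not overlap either, with a log2 fold change of -0.54 that was not called (limma adjusted p = 0.055). It was called without mice 182 and 183 (log2 -0.42, limma adjusted p = 0.0044).

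In complex III the largest fall was that of *Uqcrfs1*, the Rieske iron-sulfur protein. It stood at 92.5, 107, 138 and 238 FPKM in WT NCD mice and at 69.1, 70.4, 72.1, 76.7 and 80.6 FPKM in WT HFD mice. The groups were apart, with a log2 fold change of -0.86 ± 0.24 (SE, limma adjusted p = 0.020). Without mouse 180 the call was lost by a narrow margin (log2 -0.84, limma adjusted p = 0.051), and without mice 182 and 183 it was kept (log2 -0.71, limma adjusted p = 0.0014). The core protein gene *Uqcrc2* fell by 0.85 and *Cyc1*, cytochrome c1, by 0.64 on the log2 scale. *Uqcrc1*, *Uqcrq* and *Uqcr11* were the other 3 called falls, at -0.53, -0.65 and -0.49. Cytochrome c itself (*Cycs*) had a log2 fold change of -0.33 that was not called (limma adjusted p = 0.37).

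Complex IV was mixed. *Cox6c*, *Cox8a*, *Cox5b* and *Cox4i1* fell, by 0.68, 0.54, 0.52 and 0.48 on the log2 scale. In complex V the called falls were *Atp5c1*, the gamma shaft of the rotor (log2 -0.66), and the peripheral stalk genes *Atp5h* (-0.43) and *Atp5j* (-0.42). *Atp5g1*, one of 3 genes for the c ring, was at 6.12 ± 1.29 FPKM on NCD and 6.68 ± 0.60 FPKM on HFD (SD, n = 4 and 5). The values of these groups overlapped. Without mice 182 and 183 it was called higher (log2 0.33, limma adjusted p = 0.012). *Cox6c* and *Atp5c1* were at -0.62 and -0.63 without these mice, both called.

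The same diet contrast was then taken in MlklAdi-KO visWAT. Here 8 of 48 genes fell and 3 rose, beside a background of 20.3% lower and 23.3% higher. The median log2 fold change was -0.06 and that of all genes 0.01. Complex II again stood lower throughout, with 3 of 4 genes called (*Sdha*, *Sdhb* and *Sdhd*). The catalytic ATP synthase genes *Atp5a1* and *Atp5b* fell by 0.29 and 0.30, and *Atp5c1* fell by 0.43, on the log2 scale. The call of *Atp5c1* was lost without mouse 166 (log2 -0.39, limma adjusted p = 0.055). In complex III the 2 falls were *Uqcrc2* (log2 -0.52) and *Uqcrfs1* (log2 -0.47), while 0 of the 17 complex IV genes fell. On the TPM scale there were 12 falls and 4 rises, and the shares of all genes on that scale are not given.

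5 genes fell in both genotypes: *Sdha*, *Sdhb*, *Uqcrc2*, *Uqcrfs1* and *Atp5c1*. They make up 31.2% of the falls in WT and 62.5% of those in MlklAdi-KO mice. The share of all genes that fell in both genotypes was not counted, so this overlap is not a result about these genes. A call in one genotype alone is no test of a difference between them. *Uqcr11*, a small complex III subunit, was at 130, 141, 141 and 145 FPKM in MlklAdi-KO mice on NCD. The MlklAdi-KO mice on HFD had 113, 128, 168, 180 and 195 FPKM, which spans the NCD values on both sides.

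**Figure D2:**
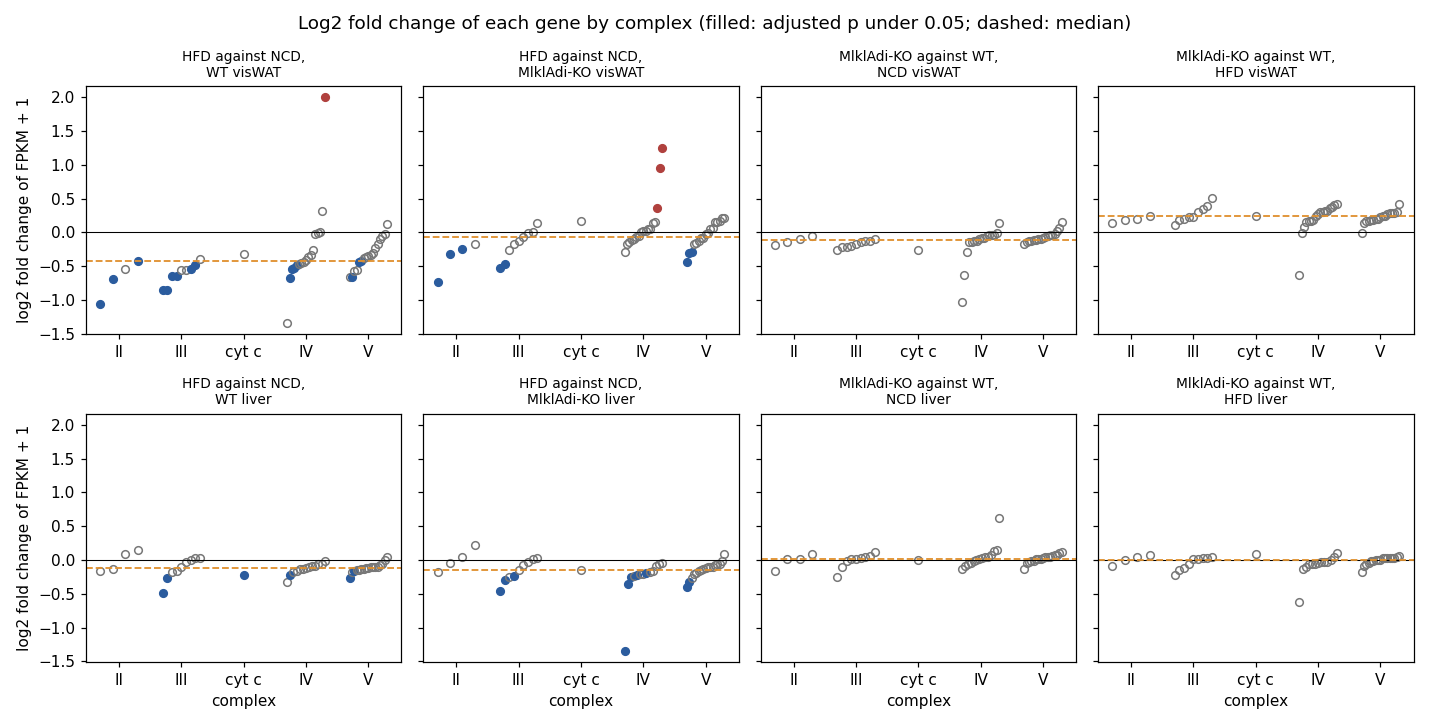
Log2 fold change of FPKM + 1 (vertical axis) for each gene by complex (horizontal axis) in 8 comparisons, visWAT above and liver below; filled points passed an adjusted p of 0.05 and the dashed line is the median. In WT visWAT on HFD most points lie under 0 (median -0.43), in MlklAdi-KO visWAT they scatter around -0.06, and in both genotype comparisons of visWAT all points are open.

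A few complex IV genes went the other way on HFD. *Cox6a2* (chromosome 7, 127804607 to 127805559, GRCm39), the heart and muscle form of subunit 6A, was at 0 to 0.05 FPKM in the 4 WT NCD mice, from at most 1 read each. In the WT HFD mice it was at 2.02, 2.32, 2.71, 4.05 and 5.38 FPKM, from 43 to 111 reads. No value overlapped (log2 fold change of FPKM + 1 of 2.0 ± 0.20, SE, limma adjusted p = 6.3e-05), and 1.98 without mice 182 and 183. In both genotypes *Cox6a2* was under the filter of 0.5 FPKM on NCD and passed it only through the HFD mice. The direction of its calls was thus fixed by the filter.

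For *Cox6a2* in MlklAdi-KO mice the NCD values were 0, 0.10, 0.19 and 0.22 FPKM. On HFD they were 0.37 and 0.70 FPKM in mice 157 and 156, and 2.19, 3.18 and 3.34 FPKM in mice 151, 153 and 152 (log2 1.25 ± 0.34, limma adjusted p = 0.017). The 2 lowest mice were also the lowest in 8 macrophage markers, whose summed level was 614 and 656 FPKM there, 1252 to 2018 FPKM in the other 3, 1565 to 2201 FPKM in WT HFD mice and 179 to 411 FPKM on NCD. The sum of 6 skeletal muscle markers, on HFD most of it *Acta1*, was 10.2 to 14.6 FPKM in WT HFD mice, 8.2 to 30.4 FPKM in MlklAdi-KO HFD mice, with the highest 2 in mice 156 and 157, 7.4 to 9.9 FPKM in MlklAdi-KO NCD mice and 3.0 to 121 FPKM in WT NCD mice. Among them *Tnnt3* was at 0.24 to 0.56 FPKM on HFD and 0.16 to 0.31 FPKM on NCD, while *Ckm* was at 0.01 FPKM or less and *Tnnc2* listed at 0 in every HFD mouse. The part of macrophages and of muscle in the *Cox6a2* values was not tested.

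*Cox7a2l*, a supercomplex assembly factor related to subunit 7A, rose in MlklAdi-KO mice from 62.3 ± 5.21 to 80.7 ± 5.21 FPKM (SD, n = 4 and 5, log2 0.37, limma adjusted p = 0.0050). In WT mice it went from 64.8 ± 9.70 to 81.0 ± 8.54 FPKM, which was not called (log2 0.32, limma adjusted p = 0.061) but was without mice 182 and 183 (log2 0.41, limma adjusted p = 0.015). *Cox7a1*, the heart and muscle form of subunit 7A, was at 2.28, 2.80, 2.80 and 3.55 FPKM in MlklAdi-KO mice on NCD and at 5.37, 5.89, 5.91, 7.56 and 7.68 FPKM on HFD. It rose without overlap (log2 0.95 ± 0.12, limma adjusted p = 0.00059).

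WT mice gave 2.26, 3.21 and 3.30 FPKM of *Cox7a1* on NCD in mice 183, 165 and 180, but 20.2 FPKM in mouse 182. Their HFD values were 3.57, 4.39, 5.52, 5.61 and 6.31 FPKM, all above the first 3 NCD mice and all below mouse 182. The log2 fold change of 0.01 ± 0.49 in WT mice (limma adjusted p = 0.99) includes this high library. Without mice 182 and 183 *Cox7a1* was called higher in WT mice too (log2 0.50, limma adjusted p = 0.040).

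*Cox8b* (chromosome 7, 140478858 to 140480359, GRCm39), the heart, muscle and brown fat form of subunit 8, varied most among the WT NCD mice. It was at 13.2, 15.3 and 63.6 FPKM in mice 183, 165 and 180 and at 268 FPKM in mouse 182. The other 14 visWAT libraries lay between 11.9 and 28.1 FPKM. *Cidea*, another gene of brown fat, stood at 4.33, 5.70, 14.9 and 72.5 FPKM in the same 4 mice, in the same order. As a share of both forms, *Cox8b* was 25.0% in mouse 182 and 2.43% to 3.96% in MlklAdi-KO NCD mice. No *Cox8b* comparison of diet or genotype was called in visWAT.

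**Figure D3:**
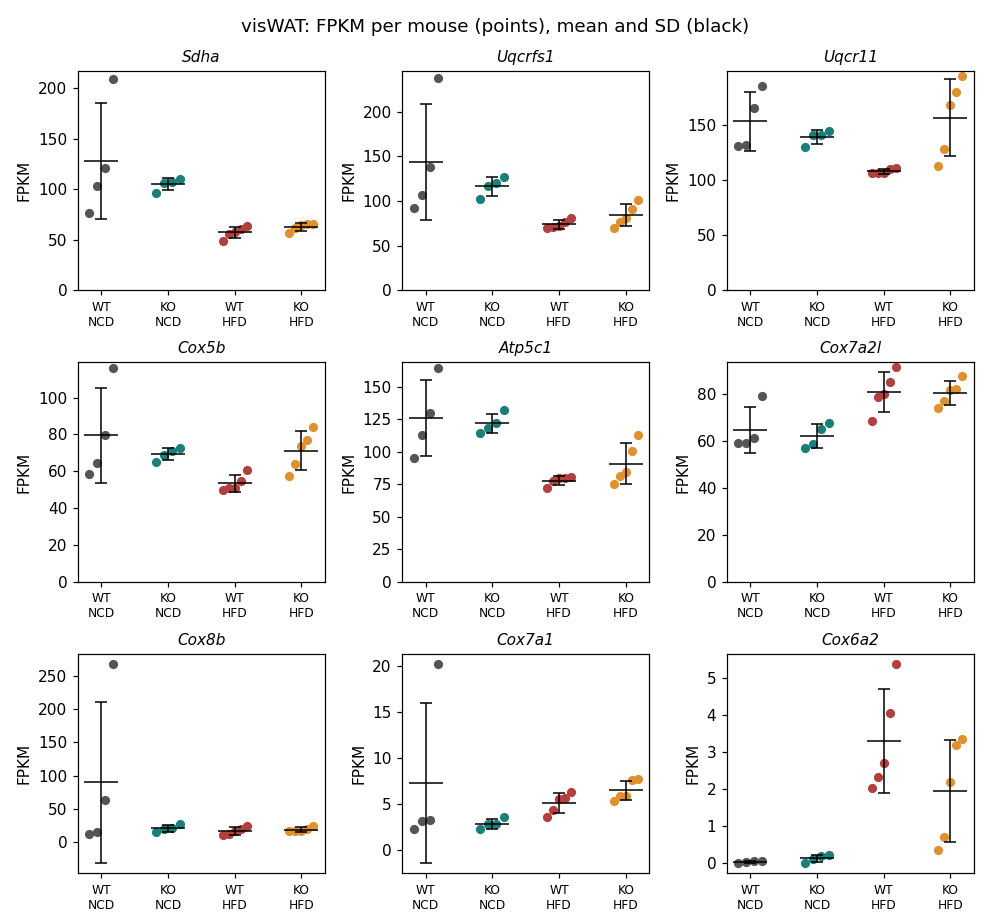
FPKM of 9 genes in visWAT (vertical axes) for each of the 4 groups (horizontal axes, KO for MlklAdi-KO); points are mice, black lines the mean and SD of 4 or 5 mice. *Sdha* lies lower on HFD in both genotypes, *Cox6a2* is near 0 on NCD, and the single high NCD points of *Cox8b* and *Cox7a1* (268 and 20.2 FPKM) belong to mouse 182.

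The effect of adipocyte *Mlkl* loss on HFD was compared next. None of the 48 genes passed an adjusted p of 0.05 in limma, where 0.0215% of all genes did. edgeR also called 0, and DESeq2 on recovered reads called 5, all higher in MlklAdi-KO mice, where DESeq2 called 0.609% of all genes higher. In limma 45 of 48 genes had a higher mean in MlklAdi-KO mice, with a median log2 difference of 0.24 beside 0.00 over all genes. At an unadjusted p under 0.05 there were 34 genes, all higher, against 10.5% of all genes tested. That count was 14 with all 4 groups in 1 fit, 20 without WT mouse 154 and 22 without mouse 156 or mouse 157. On the TPM scale the median was 0.13 beside a shift of -0.10 over all genes, 45 of 48 were again positive, and 15 had an unadjusted p under 0.05.

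In 6 genes every MlklAdi-KO mouse on HFD was above every WT mouse on HFD, beside 1.42% of all genes: *Atp5k*, *Uqcr11*, *Cox7a2*, *Cycs*, *Sdhc* and *Cox8a*. They were named after their values were seen. *Uqcr11* was at 106, 106, 106, 110 and 111 FPKM in WT HFD mice, a narrow range, and at 113, 128, 168, 180 and 195 FPKM in MlklAdi-KO HFD mice. Its limma log2 difference was 0.51 ± 0.14 (SE, limma adjusted p = 0.22).

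*Atp5k*, the e subunit of ATP synthase, was at 44.0, 45.0, 47.0, 47.6 and 50.8 FPKM in WT HFD mice and at 51.5, 56.7, 65.0, 68.4 and 77.9 FPKM in MlklAdi-KO HFD mice. The groups lay just apart (log2 0.43 ± 0.10, limma adjusted p = 0.22). *Cox5b*, the member of complex IV with the smallest p, was at 53.4 ± 4.48 and 71.2 ± 10.5 FPKM (SD, n = 5 each, log2 0.40), and *Sdhb* in complex II at 38.8 ± 1.78 and 46.1 ± 4.18 FPKM (log2 0.24). Neither was called (limma adjusted p = 0.22 for both).

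The 5 MlklAdi-KO HFD mice differed among themselves in the same direction in most genes. The mean deviation of 44 genes, those with a mean of at least 10 FPKM over both tissues, from their visWAT means was 0.21, 0.08 and 0.06 on the log2 scale in mice 157, 156 and 151 and -0.11 and -0.22 in mice 153 and 152. WT HFD mice ranged from -0.32 to -0.18. Summed mature adipocyte markers were 12590, 13073 and 10720 FPKM in mice 157, 156 and 151, 5912 and 6339 FPKM in mice 153 and 152, and 5222 to 6717 FPKM in WT HFD mice. Of this sum, *Cfd* gave 2799, 3853 and 1907 FPKM in mice 157, 156 and 151 and 308 and 354 FPKM in mice 153 and 152. *Lep* did not follow, at 653, 364 and 569 FPKM and at 606 and 654 FPKM in the same mice. Each of the other markers was higher in mice 157, 156 and 151 than in mice 153 and 152. Macrophage markers ran opposite, as given above for *Cox6a2*. The part of cell composition in the difference between genotypes was not tested.

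On NCD no gene was called between MlklAdi-KO and WT visWAT, and no gene was called in the whole table (0%). Among the 47 genes tested, limma gave 0 at an unadjusted p under 0.05, and edgeR and DESeq2 called 0. The median log2 difference was -0.11, but 0.09 without mouse 182 and 0.27 on the TPM scale, and 0.01 on the TPM scale without mice 182 and 183, so that its sign depends on that library and on the scaling. The smallest p of each complex belonged to *Sdhb* (log2 -0.13), *Uqcrq* (-0.26), *Cox6b2* (0.14) and *Atp5g2* (0.07), all with limma adjusted p = 0.92.

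Whether the diet response differed with genotype was asked with the interaction term over all 18 mice. In visWAT 0 of 48 genes passed, as did 0% of all genes, with 5 genes (10.4%) at an unadjusted p under 0.05, beside 13.2% of all genes, and 0 calls by edgeR or DESeq2. The term was positive for 46 genes, with a median of 0.34, and of -0.14 on the TPM scale beside a shift of -0.45 over all genes. Without mice 182 and 183 it was 0.27, and 0.13 on the TPM scale. *Uqcr11* had the smallest p (0.63 ± 0.20 on the log2 scale, limma adjusted p = 0.33). In liver 0 of 44 passed (0.0151% of all genes), with 3 at an unadjusted p under 0.05, beside 6.12% of all genes, and 0 by edgeR or DESeq2.

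Liver was then compared between diets. In WT liver 6 of 44 genes fell and 0 rose, against a background of 12.1% lower and 13.2% higher, with a median of -0.11 beside 0.00 over all genes. Without mice 182 and 183 there were 3 falls (10.3% of all genes), of which *Uqcr11* and *Uqcr10* were among the 6. Without mouse 182 alone there were 9. In MlklAdi-KO liver 10 of 44 fell and 0 rose, against 10.3% lower and 11.9% higher, with a median of -0.15. Complex II had no call in either genotype. *Sdhd* and *Sdhb* had the smallest p, at -0.16 (WT) and 0.22 (MlklAdi-KO) on the log2 scale (limma adjusted p = 0.057 and 0.055).

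*Uqcr11* was the complex III gene with the largest fall in both livers. Its values were 246, 261, 265 and 281 FPKM in WT NCD mice and 158, 179, 187, 205 and 211 FPKM in WT HFD mice. These groups were apart (log2 -0.49 ± 0.09, limma adjusted p = 0.0040). In MlklAdi-KO liver the values were 179, 203, 247 and 262 FPKM on NCD and 145, 151, 154, 173 and 180 FPKM on HFD. Here a single NCD mouse reached the HFD range (log2 -0.46 ± 0.12, limma adjusted p = 0.021). The call was lost without mouse 197 or mouse 199 (limma adjusted p = 0.059 and 0.062).

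*Uqcr10*, the neighbouring small complex III subunit, fell in both genotypes, by 0.27 in WT and by 0.24 in MlklAdi-KO liver on the log2 scale. *Atp5g1*, a precursor of the membrane c ring, fell by 0.26 and by 0.40. Both of its calls were lost when single mice were left out, with limma adjusted p of up to 0.070 in WT (without mouse 180) and 0.071 in MlklAdi-KO liver (without mouse 197). *Uqcr11*, *Uqcr10* and *Atp5g1* are 50% of the WT falls and 30% of the MlklAdi-KO falls. The share of all genes that fell in both livers was not counted. The other WT falls were *Cycs* (-0.22), *Cox6a1*, the common form of subunit 6A (-0.22), and the *Atp5o* row ENSMUSG00000022956, the OSCP of the stalk (-0.16). The *Cox6a1* call was lost under most such omissions, with limma adjusted p of up to 0.11 (without mouse 180).

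The other MlklAdi-KO falls were *Cox7c* (-0.36), *Atp5mpl* (-0.32), *Uqcrb* (-0.29), *Cox6c* (-0.25), *Cox8a* (-0.22), *Cox7a2* (-0.20) and *Cox7a1* (-1.34). *Cox7a1* is a low gene in liver, at 3.65, 5.55, 6.08 and 8.45 FPKM in MlklAdi-KO NCD mice and 1.07, 1.28, 1.56, 1.83 and 2.86 FPKM on HFD, from 10 to 25 reads in the latter. The groups did not overlap (limma adjusted p = 0.0027). In WT liver it was at 2.62, 2.74, 3.05 and 5.59 FPKM on NCD and 2.20, 2.30, 2.34, 2.65 and 7.98 FPKM on HFD, with overlap and no call. Its interaction term was -1.25 ± 0.41 (SE, limma adjusted p = 0.53).

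**Figure D4:**
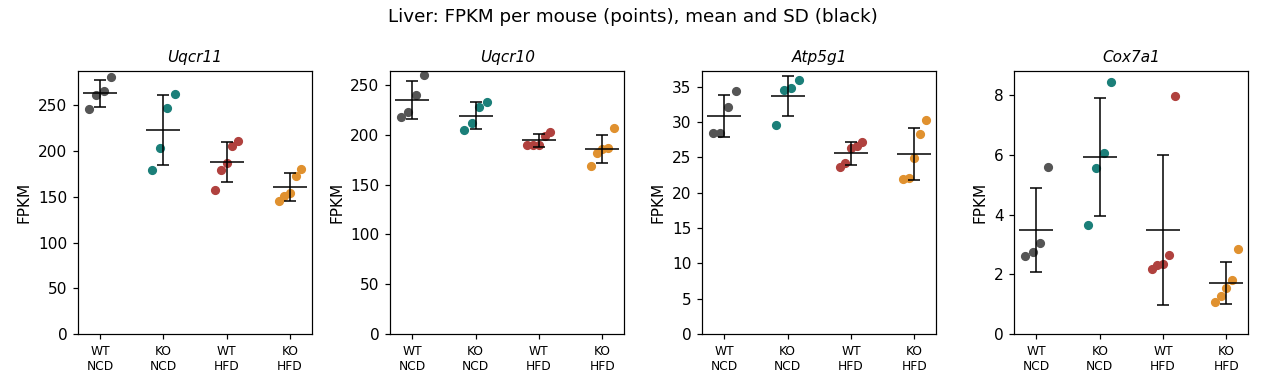
FPKM of 4 genes in liver (vertical axes) by group (horizontal axes, KO for MlklAdi-KO); points are mice, black lines the mean and SD of 4 or 5 mice. *Uqcr11* and *Uqcr10* lie lower on HFD in both genotypes, and *Cox7a1* in MlklAdi-KO mice runs from 3.65 to 8.45 FPKM on NCD and from 1.07 to 2.86 FPKM on HFD.

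Between genotypes, no gene was called in liver. On HFD 0 of 44 passed in limma, edgeR and DESeq2, with 1 at an unadjusted p under 0.05 (*Uqcr11*, log2 -0.22, limma adjusted p = 0.35, beside 12.6% of all genes) and a background of 0.197%. On NCD 0 of 45 passed in the same 3 tools, with 1 at an unadjusted p under 0.05 (*Cox7a1*, log2 0.62, beside 4.35% of all genes) and a background of 0.00758%. The medians were 0.00 and 0.01.

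Levels were last set side by side between the tissues of WT mice. RNA was extracted from fat with QIAzol and from liver with a Nucleospin kit, so tissue and extraction cannot be told apart. On HFD 41 of 48 genes were lower and 4 higher in visWAT than in liver, beside 43% and 41.6% of all genes. On NCD 25 of 47 were lower and 3 higher, beside 34% and 31.5%, and 36 lower without mice 182 and 183. The direction depends on the scaling, since on the TPM scale 28 were higher and 14 lower on HFD and 4 higher and 1 lower on NCD. Shares of all genes on the TPM scale, and without mice 182 and 183, are not given. Relative to the median of all genes the HFD median of these genes was -0.84 on the FPKM scale and -0.72 on the TPM scale.

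Per length, *Cox6a1* and *Cox8a* had the highest means in WT HFD visWAT (362 to 388 and 423 to 441 FPKM over 5 mice), and *Cox6a1* and *Atp5a1* in WT HFD liver (561 ± 31.3 and 472 ± 21.0 FPKM, SD, n = 5). *Atp5g1* differed most downwards, at 6.68 ± 0.60 FPKM in visWAT and 25.6 ± 1.60 FPKM in liver. *Cycs* was at 24.8 ± 1.2 FPKM in visWAT and 30.6 ± 0.80 FPKM in liver (limma adjusted p = 4.5e-05). Its reads went the other way, at 2453 to 3312 in visWAT and 1709 to 1962 in liver. The direction of this difference thus depends on the scaling. *Cox8a* did not differ by the test on the FPKM scale (432 and 450 FPKM, limma adjusted p = 0.29).

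The 4 genes higher in visWAT on HFD were all second forms of complex IV subunits. Each had a liver mean under the filter of 0.5 FPKM and passed that filter only through visWAT. Their direction was thus fixed by the filter, and the values are given as a description. *Cox8b* was at 11.9, 12.4, 17.1, 20.3 and 25.4 FPKM in visWAT and at 0 to 0.46 FPKM, from at most 3 reads, in liver. *Cox4i2*, the oxygen-regulated form of subunit 4, was at 4.58 ± 0.38 FPKM in visWAT and 0.11 ± 0.10 FPKM in liver, and *Cox6b2*, known from testis, at 2.01 ± 0.27 and 0.13 ± 0.04 FPKM. *Cox6a2* was the remaining one. In liver *Cox8b*, *Cox4i2* and *Cox6a2* rested on at most 8 reads per library. As shares of both forms in WT HFD visWAT, *Cox8b* was 3.87% ± 1.25, *Cox7a1* 6.07% ± 1.15, *Cox4i2* 2.13% ± 0.16, *Cox6b2* 1.03% ± 0.13 and *Cox6a2* 0.87% ± 0.34 (SD, n = 5).

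**Figure D5:**
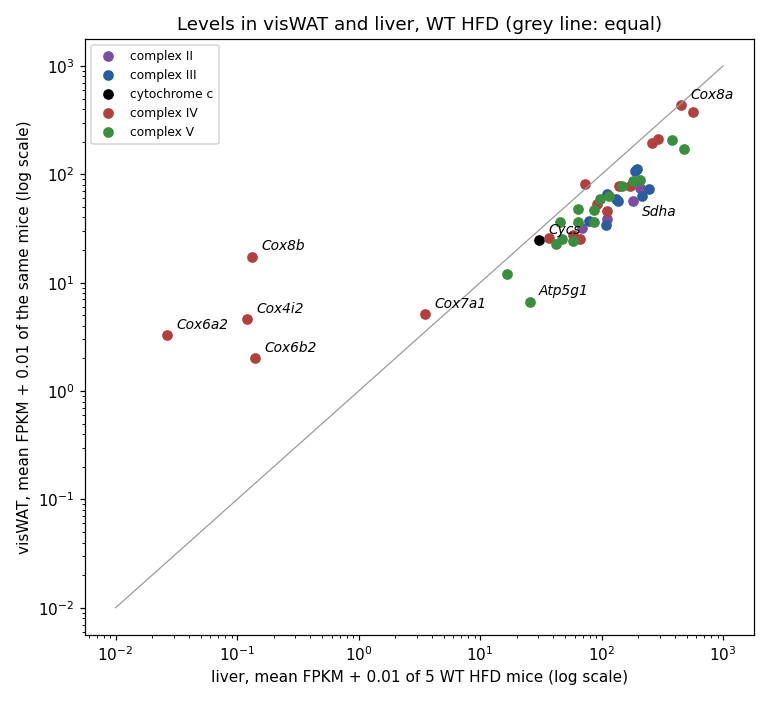
Mean FPKM + 0.01 of each gene in liver (horizontal, log scale) and visWAT (vertical, log scale) of the same 5 WT HFD mice; colours give the complex and the grey line marks equal values. Most points lie under the line, whereas *Cox8b*, *Cox4i2*, *Cox6a2* and *Cox6b2* lie far above it at 0.02 to 0.13 FPKM in liver.

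Genes that act with these subunits were read in the same fits, on the FPKM scale only. The background for their diet counts in visWAT is that given above, 15.8% lower and 21.9% higher of all genes in WT and 20.3% and 23.3% in MlklAdi-KO mice. Of 6 mitochondrially encoded subunits of complexes III to V, 4 fell on HFD in WT visWAT and 4 in MlklAdi-KO visWAT, with medians of -1.48 and -0.79. Without mice 182 and 183, 6 of 6 fell in WT, with a median of -1.35. *mt-Cytb*, cytochrome b of complex III, changed from 8320 ± 3765 to 2946 ± 580 FPKM in WT and from 6505 ± 631 to 3936 ± 910 FPKM in MlklAdi-KO mice (SD, n = 4 and 5). The WT NCD mice other than 182 and 183 were at 6128 and 9129 FPKM. The level of *mt-Co2* was far under that of *mt-Co1* (184 and 12883 FPKM in WT NCD visWAT), and reads that also match nuclear copies make these values uncertain. None of the 6 was called between genotypes or between diets in liver.

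Of 13 other enzymes of the tricarboxylic acid cycle, 6 fell and 0 rose in WT visWAT on HFD and 8 fell and 1 rose in MlklAdi-KO visWAT. In WT 10 fell without mice 182 and 183. *Suclg2*, a succinyl-CoA ligase subunit, had the largest fall in both (-0.97 and -0.80), and *Cs*, citrate synthase, fell by 0.91 and by 0.55. Among 39 assembly factors tested of a list of 44, 10 fell and 2 rose in WT, or 13 and 4 without mice 182 and 183, and 3 fell and 10 rose in MlklAdi-KO mice. The share of rises in MlklAdi-KO mice was near that of all genes, and no assembly factor passed the interaction. *Higd2a*, a complex IV assembly factor, was the highest of the risers (97.2 ± 12.2 against 62.4 ± 3.88 FPKM in MlklAdi-KO mice). No assembly factor was called between genotypes on HFD.

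Among 12 transcriptional regulators tested in visWAT, 4 fell and 1 rose on HFD in WT and 5 fell and 1 rose in MlklAdi-KO mice. Without mice 182 and 183 the WT counts were again 4 and 1, of 11 tested. *Nrip1*, a corepressor of oxidative genes, fell by 1.09 and 1.13 and *Gabpa*, a subunit of GABP, by 0.27 and 0.33. *Tfam*, which packages and transcribes mitochondrial DNA, fell by 0.28 and 0.16. *Atpif1*, the inhibitor of ATP synthase, lies outside the name rule. It rose on HFD by 1.0 ± 0.18 in WT and 0.98 ± 0.15 in MlklAdi-KO visWAT (SE, log2, limma adjusted p = 0.0020 and 0.0012).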

How the data were processed

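RNA-seq of visWAT and liver from 18 mice gave 36 libraries. Per the authors' methods, reads were trimmed with fastp, mapped with HISAT2 to mm39 (GRCm39) and counted with featureCounts. The strand setting and how multi-mapping reads were counted are not given in the sources used here. Deposited by the authors were FPKM values for all genes, with the gene length, and raw counts of reads for the genes of 4 comparison tables. Their fold changes, p-values and pathway tables were not used, nor were 72 further columns of normalized or repeated values. Coordinates are those of the deposited table.

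The library size behind each deposited FPKM was found from genes with counts, and every FPKM became a whole read number (100%, tolerance 0.01). Divided by the reads on genes, this size came to between 0.74 and 0.81 for liver libraries. For visWAT the ratio was 1.08 in mouse 182, 1.01 in mouse 183 and 1.30 to 1.40 in the other libraries. FPKM thus stood in no fixed ratio to reads on genes across libraries. The test was limma 3.58.1 (R 4.3.3) on log2(FPKM + 1), the 2 groups of a comparison in each fit, with a mean FPKM of at least 0.5 and Benjamini-Hochberg adjustment over all genes passing it, threshold 0.05. The pseudocount of 1 understates changes of low genes. The interaction used 18 mice. Other settings tried were 0.1 as pseudocount, dropping the filter, a filter of 1, the TPM scale, edgeR 4.0.16 and DESeq2 1.42.0 on recovered reads, all 4 groups in 1 fit and leaving out mice. The TPM scale together with leaving out mice 182 and 183, and the related lists without these mice, were added after seeing the data. Mouse numbers pair only the tissues, which come from the same animals. The fits were tested on simulated data. Replicates were separate mice.

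The genes and lists were chosen with earlier results of these data known. Genes were named by role (subunits with known forms and catalytic parts), by the largest called rise and fall per complex and comparison (where none was called, the smallest p), and where below the filter. The other genes named were chosen after their values were seen.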

Additional observations from a re-analysis of the deposited data

Results flagged for a closer look

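For 30 genes fixed by role, each group was searched, where the gene's mean over the tissue was at least 0.5 FPKM, for a single mouse far from the others, by the gap to its neighbour against the range of the group. This gave 8 cases in 208 sets of values, and chance alone gives about 1 in 20.

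In visWAT of the library labelled WT NCD mouse 182, *Cox7a1* was high at 20.2 FPKM and *Cox6a2* low at 0 FPKM, the latter a difference of about 1 read. WT NCD mouse 183 was high in *Cox7a2l* (79.3 FPKM), and MlklAdi-KO NCD mouse 199 was high in *Cox4i1* (305 FPKM). In liver, *Sdha* was lowest in WT NCD mouse 182 (179 FPKM) and *Sdhc* highest in MlklAdi-KO HFD mouse 151 (75.7 FPKM). Liver *Cox7a1* was highest in WT HFD mouse 155 (7.98 FPKM) and in WT NCD mouse 180 (5.59 FPKM).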

How the results depend on the processing

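Counts of called genes in the HFD comparison of WT visWAT (17 in the report) were 10 without a filter, 30 with edgeR, 32 with DESeq2, 30 with all 4 groups in 1 fit, 33 without mice 182 and 183, and 2, both higher, on the TPM scale. Of all genes, DESeq2 called 22.8% lower and 21.6% higher. Without mice 182 and 183 these shares were 24.2% and 27.8% in limma. The TPM scale without those mice gave 28. In MlklAdi-KO visWAT on HFD the 11 calls became 6 with all 4 groups in 1 fit. Between genotypes on HFD, DESeq2 called 5 in visWAT. In WT liver the 6 calls became 1 on the TPM scale, 16 with DESeq2, 3 without mice 182 and 183 and 2 with both changes. In MlklAdi-KO liver the 10 calls became 5 without a filter, 19 on the TPM scale, 17 with DESeq2 and 20 with all 4 groups. DESeq2 called 14.8% of all genes lower and 14.5% higher in WT liver, and 12.9% and 13.9% in MlklAdi-KO liver. Between tissues the TPM scale gave mostly higher genes in visWAT, with 5 calls on NCD, 27 without mice 182 and 183, and 42 on HFD. The TPM scale divides each library by its sum of FPKM. That sum was 564718 in visWAT of mouse 183 and 227793 to 309820 in the other visWAT libraries. In liver it was 468955 to 549786. The part of this division in these shifts was not tested. Shares of all genes under the remaining settings, and with single mice left out, are not given. Those counts show only how the calls moved.

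Leaving out 1 mouse at a time gave 8 (without mouse 180) to 32 (without mouse 183) calls for WT visWAT on HFD, 7 (without mouse 166) to 13 for MlklAdi-KO visWAT, 4 to 9 for WT liver, 3 (without mouse 197 or 199) to 9 for MlklAdi-KO liver, 16 (without mouse 165 or 180) to 42 (without mouse 182) between tissues on NCD and 45 to 46 on HFD. It gave 0 in all 4 genotype comparisons and both interactions. With the mouse as a replicate block, between tissues, the calls were 27 on NCD and 46 on HFD, beside 28 and 45.

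Of the single genes named, 839 of the values under alternatives kept direction and side of the threshold, 37 lost the call (in the diet comparisons these were *Uqcrfs1*, *Sdha*, *Cox6c* and *Atp5c1* in visWAT and *Cox6a1*, *Atp5g1* and *Uqcr11* in liver), 13 gained one and 6 changed sign, none of them called. On the TPM scale these were *Sdhb* (0.24) and *Uqcrq* (0.12) between genotypes on NCD in visWAT and the visWAT interaction of *Sdhb* (-0.11) and *Atp5d* (-0.090). The liver interaction of *Sdhb* was -0.0042 on that scale without mice 182 and 183, and *Sdhb* between genotypes on NCD was 0.00019 without mouse 182 (range from -0.21). At this depth genes of a few reads, such as *Cox6a2* on NCD, cannot be ranked.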
